A study of Mus musculus with 2 samples.

Results

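Macrophages are kept alive and in place by a small set of secreted and membrane-bound factors that other cells of the tissue make. The receptor Csf1r transmits the survival and growth signal of 2 alternative ligands, Csf1 and Il34. The chemokine Cx3cl1 is made as a membrane-anchored protein and binds Cx3cr1, while Ccr2 binds the monocyte-attracting chemokines of the Ccl2 group. Gas6 bridges phosphatidylserine on dying cells to the receptor tyrosine kinases Axl and Mertk, through which macrophages clear dead cells and damp inflammatory signalling. These 9 genes, 4 ligands and 5 receptors of the 32285 genes counted, were taken by symbol, and each symbol matched 1 gene. Their levels are described here in the mitral valve, ligand source against receptor cell.

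The data were 2 single-cell 3′ RNA libraries of mitral valve, made from anterior and posterior leaflets of C57BL/6J mice that were pooled by genotype and digested with matrix-degrading enzymes. The Fbn1 C1039G/+ library came from 3 pooled mice, and the WT (Fbn1 +/+) library came from 5 pooled mice. All mice were 1 month old. The C1039G allele replaces a cysteine of fibrillin-1, a microfibril protein, and heterozygous carriers are used as a mouse model of Marfan syndrome, in which mitral valves can become thickened and prolapse. With 1 library per genotype there is no replicate, so no test between genotypes was possible and no p-value is given. Intervals are exact 95% intervals that cover counting error only, not differences between mice, dissections or libraries.

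The files held 9744 barcodes and 103663375 unique molecular identifiers (UMIs, counted RNA molecules) in the Fbn1 C1039G/+ library, and 9509 barcodes and 100969482 UMIs in the WT library. The kept barcodes, with 1000 or more UMIs of which mitochondrial genes made no more than 20%, numbered 9540 in Fbn1 C1039G/+ and 9395 in WT, with median depths of 9778 and 9827 UMIs. The 2 libraries had 17 barcode sequences in common. Barcodes in which Dcn, Col1a1, Col1a2 and Col3a1 together made at least 1% of UMIs were called interstitial (7768 in Fbn1 C1039G/+ and 7557 in WT). Under that share, barcodes with at least 10 C1qa, C1qb and C1qc UMIs were called macrophage (880 in Fbn1 C1039G/+ and 800 in WT) and those with at least 5 Pecam1, Cdh5 and Emcn UMIs endothelial (318 in Fbn1 C1039G/+ and 250 in WT). The 10 Fbn1 C1039G/+ and 13 WT barcodes that met both of these rules were kept apart. The remaining barcodes were divided by Ptprc (169 in Fbn1 C1039G/+ and 262 in WT), by the melanocyte genes Dct, Pmel and Mlana (77 and 115) and by the mural genes Rgs5, Kcnj8 and Abcc9 (50 and 61). Of 12 further macrophage markers, 11 had their highest level in macrophage barcodes in both libraries. All 8 endothelial markers were highest in endothelial barcodes, and 6 of 8 interstitial markers in Fbn1 C1039G/+ and 5 of 8 in WT were highest in interstitial barcodes. The Ptprc barcodes were mixed, with 593 and 1143 CPM (UMIs per 1000000 UMIs of the class) of 4 T and NK cell genes in Fbn1 C1039G/+ and WT, and 746 and 936 CPM of 8 monocyte and dendritic cell genes. Rgs5 barcodes also carried the 8 interstitial markers, at 11911 CPM in Fbn1 C1039G/+ and 19823 CPM in WT. Interstitial barcodes had 20349 and 20641 CPM of these markers. The Rgs5 barcodes are therefore not read as a mural source distinct from interstitial cells.

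Levels are CPM of a class in 1 library. They are not scaled to transcript length, so they are compared within a gene and never between genes. A share of UMIs held by a class also depends on how many cells of that class survived digestion. For scale, interstitial barcodes held 83.5% of all UMIs in Fbn1 C1039G/+ and 82.0% in WT, and macrophage barcodes held 7.02% and 7.82%.

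Csf1, the broadly used growth factor for Csf1r, was mainly a transcript of the non-immune classes. Its level in interstitial barcodes was 74.0 CPM (95% interval 72.2 to 75.9) in Fbn1 C1039G/+ and 75.7 CPM (73.8 to 77.6) in WT. Endothelial barcodes had 63.0 CPM in Fbn1 C1039G/+ and 81.1 CPM in WT, and Rgs5 barcodes had 51.2 CPM and 86.4 CPM. These 3 classes lay close together, and their order differed between the libraries. Macrophage barcodes had 6.89 CPM in Fbn1 C1039G/+ and 10.1 CPM in WT, so the interstitial level was 10.8-fold (8.14 to 14.5) and 7.46-fold (5.99 to 9.42) the macrophage level. After each barcode was thinned to 3000 UMIs, at least 1 Csf1 UMI was found in 19.6% of Fbn1 C1039G/+ and 19.7% of WT interstitial barcodes, against 1.95% and 1.82% of macrophage barcodes. Without thinning, these shares were 48.9% and 49.0% of interstitial barcodes, and 3.52% and 6.63% of macrophage barcodes, at median depths of 10094.5 and 10086 UMIs, and of 7387 and 8292.5 UMIs. Interstitial barcodes held 92.6% of Csf1 UMIs in Fbn1 C1039G/+ and 91.5% in WT.

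Il34, the second ligand of Csf1r and best known from skin and brain, was close to the limit of detection. It gave 242 UMIs in Fbn1 C1039G/+ interstitial barcodes and 167 in WT, or 2.80 and 2.02 CPM. No Il34 UMI was counted in the 880 Fbn1 C1039G/+ or the 800 WT macrophage barcodes, which allows levels of up to 0.413 and 0.380 CPM at a limit of 3 counts. Rgs5 barcodes had the highest point values, 8.53 CPM in Fbn1 C1039G/+ and 12.1 CPM in WT, from only 5 and 8 UMIs. Within the interstitial class, barcodes with at least 2 UMIs of Notch3, a receptor of mural cells, had 8.15 CPM in Fbn1 C1039G/+ and 11.3 CPM in WT. The other interstitial barcodes had 2.59 CPM in Fbn1 C1039G/+ and 1.60 CPM in WT. Notch3 and Rgs5 barcodes were thus the higher ones for Il34 in both libraries, from 26 and 40 UMIs in the Notch3 barcodes.

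Cx3cl1, the membrane-anchored ligand of Cx3cr1, also came from interstitial, endothelial and Rgs5 barcodes. Interstitial barcodes had 17.6 CPM in Fbn1 C1039G/+ and 20.6 CPM in WT, endothelial barcodes had 23.4 and 20.1 CPM, and Rgs5 barcodes had 25.6 and 33.3 CPM. The intervals of the endothelial and Rgs5 values overlapped in both libraries, so their order was not resolved. Macrophage barcodes had 2.07 CPM in Fbn1 C1039G/+ and 4.82 CPM in WT. Interstitial barcodes held 89.3% of all Cx3cl1 UMIs in Fbn1 C1039G/+ and 90.4% in WT.

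Gas6, the bridging ligand of Axl and Mertk, was the broadest of the ligands. It measured 512 CPM (507 to 517) in Fbn1 C1039G/+ and 517 CPM (512 to 522) in WT interstitial barcodes. Endothelial barcodes had 416 CPM in Fbn1 C1039G/+ and 376 CPM in WT, and 89.3% and 89.2% of them had at least 1 UMI. Macrophage barcodes also carried it, with 274 CPM in Fbn1 C1039G/+ and 281 CPM in WT, so that interstitial barcodes were 1.87-fold and 1.84-fold above them. Ptprc barcodes had 20.9 CPM in Fbn1 C1039G/+ and 58.4 CPM in WT. In thinned barcodes Gas6 was found in 35.8% of Fbn1 C1039G/+ and 39.8% of WT macrophage barcodes, against 3.25% and 3.61% of Ptprc barcodes. The macrophage class was therefore both a source of Gas6 transcript and a carrier of its receptors.

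**Figure D1:**
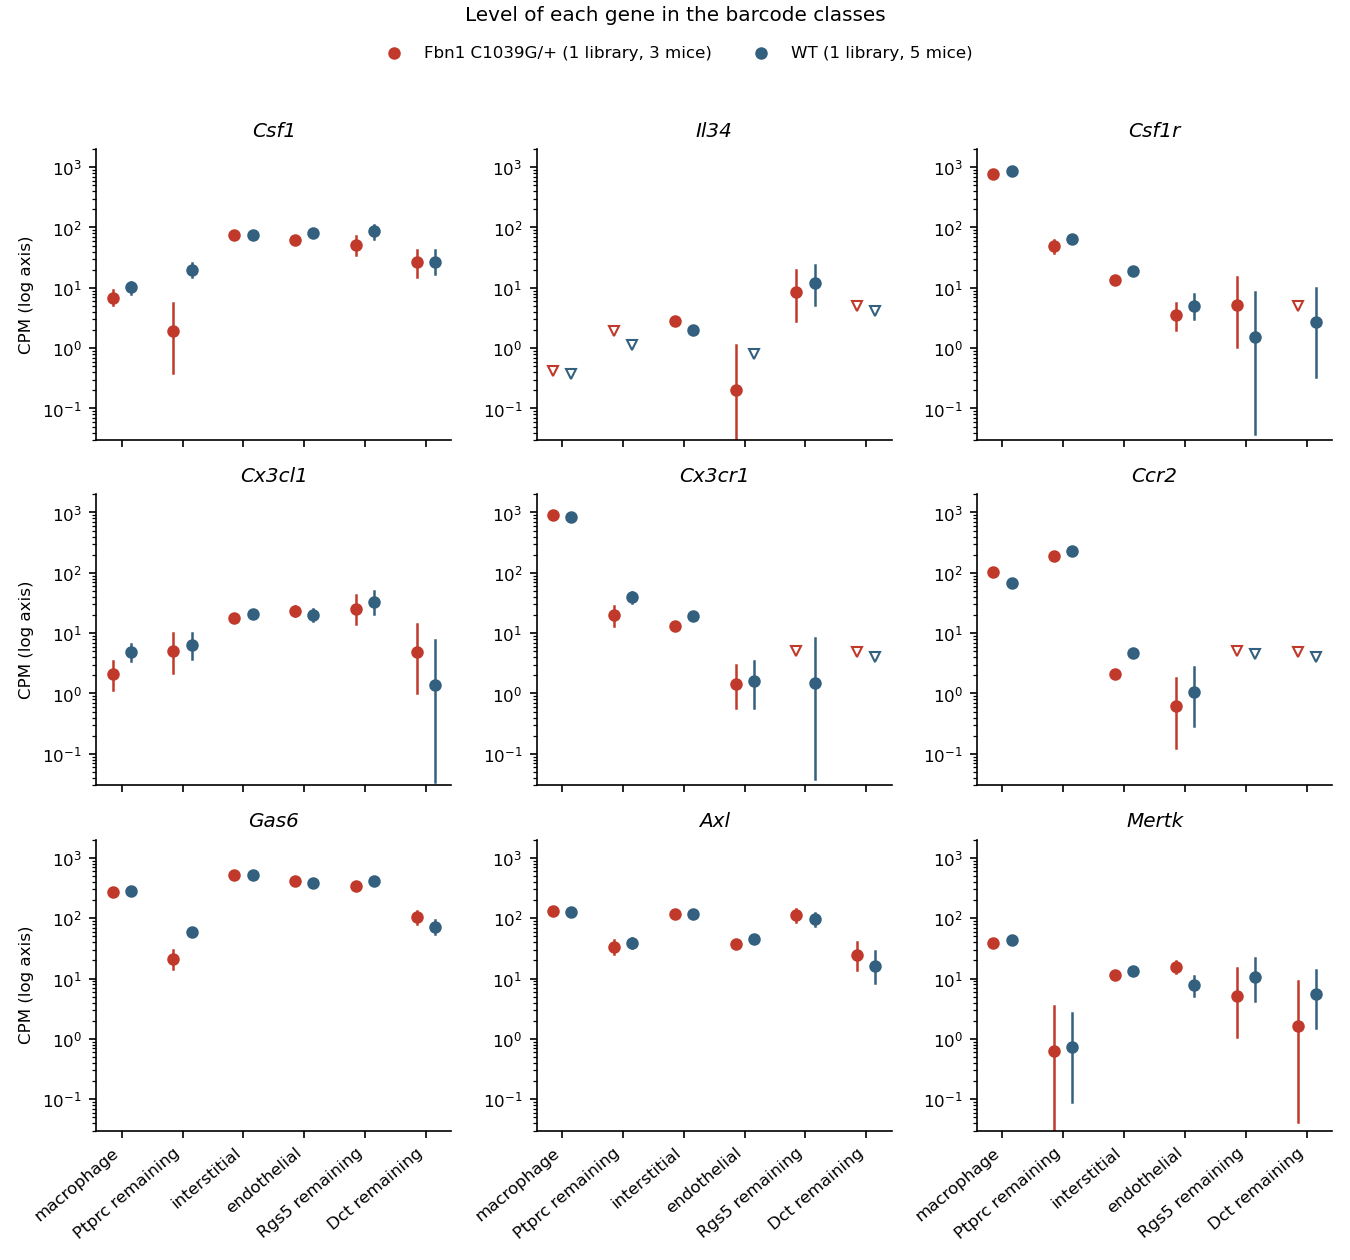
Level of the 9 genes in CPM (log axis) in 6 barcode classes, in the Fbn1 C1039G/+ library (red, left of each pair) and the WT library (blue, right). Bars are exact 95% counting intervals, cut at the lower edge of the axis, and open triangles mark a count of 0, drawn at the limit of 3 counts. Csf1, Cx3cl1 and Gas6 are high in interstitial and endothelial barcodes, and Csf1r and Cx3cr1 in macrophage barcodes at 783 to 897 CPM.

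Csf1r, the receptor of Csf1 and Il34, was highest in the macrophage class. It had 783 CPM (763 to 804) in Fbn1 C1039G/+ and 866 CPM (846 to 887) in WT macrophage barcodes, and 96.6% and 98.4% of these barcodes had at least 1 UMI. Ptprc barcodes had 48.7 CPM in Fbn1 C1039G/+ and 64.0 CPM in WT, interstitial barcodes 13.4 and 19.2 CPM, and endothelial barcodes 3.49 and 5.02 CPM. Thinned to 3000 UMIs, Csf1r was found in 84.8% of Fbn1 C1039G/+ and 88.8% of WT macrophage barcodes. Macrophage barcodes stood 58.6-fold above interstitial barcodes in Fbn1 C1039G/+ and 45.2-fold in WT. Csf1 and Csf1r thus stood in opposite order between macrophage and interstitial barcodes in both libraries.

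Cx3cr1, the receptor of Cx3cl1 on monocytes and resident macrophages, followed the same class order. It had 897 CPM (875 to 919) in Fbn1 C1039G/+ and 842 CPM (822 to 863) in WT macrophage barcodes, with UMIs in 89.1% and 93.1% of them, or 79.8% and 82.7% after thinning. Ptprc barcodes had 19.6 CPM in Fbn1 C1039G/+ and 39.2 CPM in WT, and endothelial barcodes 1.44 and 1.59 CPM. The macrophage level was 67.2-fold and 43.8-fold above the interstitial level.

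Ccr2, which marks monocytes and the cells that recently derived from them, had another order. It was highest in Ptprc barcodes, at 191 CPM (170 to 213) in Fbn1 C1039G/+ and 230 CPM (213 to 249) in WT, and 49.1% and 51.5% of these barcodes had a UMI. Macrophage barcodes had 104 CPM (96.8 to 112) in Fbn1 C1039G/+ and 68.1 CPM (62.4 to 74.1) in WT, but only 16.4% and 12.4% of them had a UMI, or 12.5% and 7.78% after thinning. Endothelial barcodes, with 3 and 4 Ccr2 UMIs, had one in 0.943% and 0.800%, at median depths of 10918.5 and 10882.5 UMIs. Ranked by Ccr2, the top 10% of macrophage barcodes held 90.5% of the macrophage Ccr2 UMIs in Fbn1 C1039G/+ and 96.5% in WT. Ccr2 was thus a transcript of a minority of macrophage barcodes, where Csf1r and Cx3cr1 were found in nearly all.

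Axl and Mertk, the Gas6 receptors, differed from each other in where they were found. Axl had 133 CPM in Fbn1 C1039G/+ and 126 CPM in WT macrophage barcodes, and 117 and 116 CPM in interstitial barcodes, so the classes were nearly level. Endothelial barcodes had less Axl, 36.9 CPM in Fbn1 C1039G/+ and 45.2 CPM in WT. Mertk had 38.3 CPM in Fbn1 C1039G/+ and 43.6 CPM in WT macrophage barcodes, 3.35-fold and 3.32-fold above the 11.4 and 13.1 CPM of interstitial barcodes. Since interstitial barcodes were far more numerous, they still held 73.2% of Mertk UMIs in Fbn1 C1039G/+ and 72.8% in WT, and 87.6% and 86.5% of Axl UMIs.

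Counted by a rule of at least 2-fold in both libraries with intervals that exclude 1, 8 members could be measured between macrophage and interstitial barcodes. Of these, 4 were higher in macrophage barcodes (Csf1r, Cx3cr1, Ccr2 and Mertk), where the same rule called 15.9% of the 7751 genes measured. A further 2 were higher in interstitial barcodes (Csf1 and Cx3cl1), where it called 22.6% of genes. Gas6 and Axl met neither rule. Of 4 members measured between endothelial and interstitial barcodes, 0 were at least 2-fold higher in the endothelial class, against 13.4% of 7929 genes. No test stands behind these counts, since cells of 1 library share their source.

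The low Csf1r and Cx3cr1 levels of interstitial barcodes were not spread evenly. Interstitial barcodes that also held at least 10 C1q UMIs numbered 207 in Fbn1 C1039G/+ and 170 in WT, or 2.66% and 2.25% of the class. They were deep, with medians of 15786 and 19252 UMIs. These few barcodes held 79.9% of interstitial Csf1r UMIs in Fbn1 C1039G/+ and 83.3% in WT, and 86.2% and 90.2% of interstitial Cx3cr1 UMIs. For each 1000 C1q UMIs they carried 41.1 Csf1r UMIs in Fbn1 C1039G/+ and 54.0 in WT, close to the 42.2 and 51.8 of macrophage barcodes. In the interstitial barcodes with no C1q UMI, Csf1r was at 2.48 CPM in Fbn1 C1039G/+ and 3.05 CPM in WT. At least 1 Csf1r UMI was seen in 2.28% and 2.44% of them, at median depths of 9901 and 9891.5 UMIs. Endothelial barcodes, not chosen for a lack of C1q UMIs, gave 4.09% and 5.6%. These shares came from 13 and 14 barcodes, at median depths of 10918.5 and 10882.5 UMIs. All interstitial barcodes gave 4.81% in Fbn1 C1039G/+ and 4.84% in WT. Whether the 207 and 170 barcodes were droplets with 2 cells was not tested.

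Mertk and Axl behaved otherwise. The same barcodes held only 6.98% of interstitial Mertk UMIs in Fbn1 C1039G/+ and 8.55% in WT, and 4.26% and 4.73% of Axl UMIs. Interstitial barcodes with no C1q UMI had 11.2 CPM of Mertk in Fbn1 C1039G/+ and 12.4 CPM in WT, with a UMI in 10.4% and 11.3% of them. Ptprc barcodes, with 1 Mertk UMI in Fbn1 C1039G/+ and 2 in WT, had one in 0.592% in Fbn1 C1039G/+ and 0.763% in WT, at median depths of 9494 and 8450.5 UMIs against 9901 and 9891.5 UMIs. Thinned to 3000 UMIs, all interstitial barcodes gave 3.25% and 3.57%, against 0.649% and 0% of Ptprc barcodes (a limit of 3 barcodes among 249 applies to the value of 0). Barcodes with no C1q UMI held 73.5% of interstitial Mertk UMIs in Fbn1 C1039G/+ and 71.7% in WT. They made up 77.8% and 79.2% of interstitial barcodes, so the Mertk share was a little below their share of barcodes. For Csf1r the same barcodes held only 13.9% and 12.1% of interstitial UMIs. The Mertk level was still higher in the interstitial barcodes with at least 10 C1q UMIs. There it was 19.0 CPM (14.8 to 24.1) in Fbn1 C1039G/+ and 26.2 CPM (21.2 to 32.1) in WT.

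**Figure D2:**
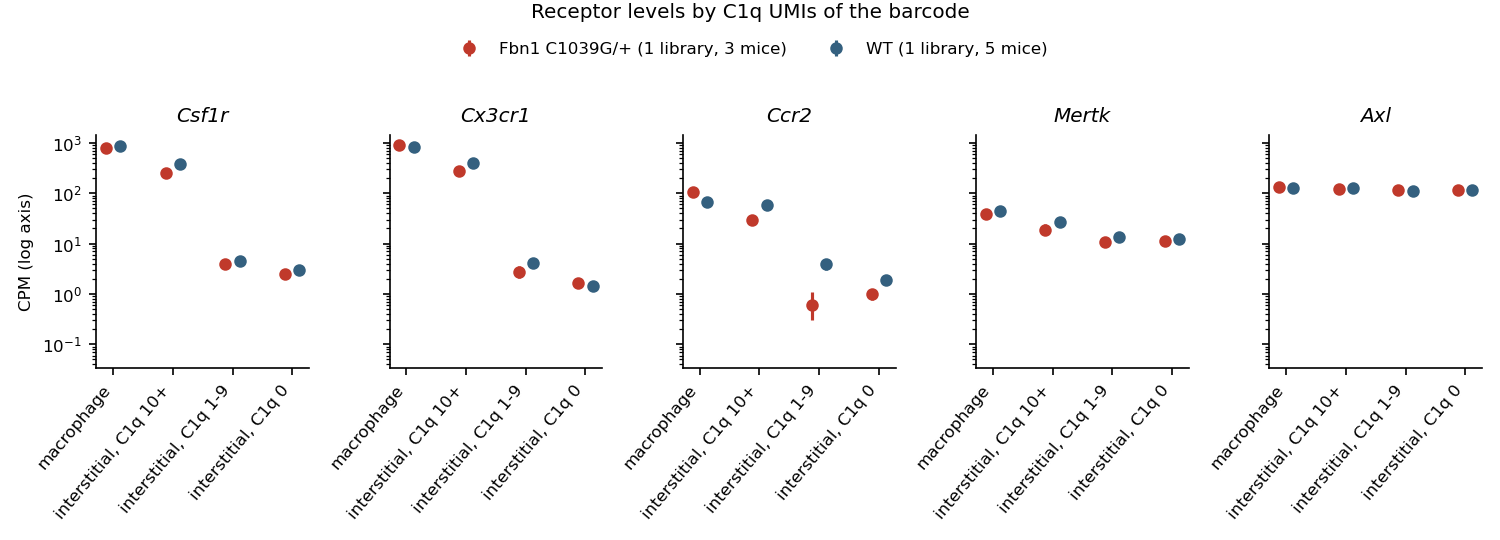
Level of the 5 receptors in CPM (log axis) in macrophage barcodes and in interstitial barcodes divided by their C1q UMIs, in the Fbn1 C1039G/+ library (red, left of each pair) and the WT library (blue, right), with exact 95% counting intervals. Csf1r is at 2.48 and 3.05 CPM in interstitial barcodes with no C1q UMI, while Axl is at 117 and 116 CPM there.

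Csf1, Gas6, Axl and Mertk were the members found in interstitial barcodes apart from C1q genes whose RefSeq promoter window overlapped no annotated exon, and these windows are shown for that reason. Each gives the 250 bases before the transcription start on the GRCm38.p6 (mm10) assembly, 5′ to 3′ on the strand of the gene, with the hexamer GGGCGG or its reverse complement in capitals.
Csf1 (chr3:107760470-107760719, minus strand): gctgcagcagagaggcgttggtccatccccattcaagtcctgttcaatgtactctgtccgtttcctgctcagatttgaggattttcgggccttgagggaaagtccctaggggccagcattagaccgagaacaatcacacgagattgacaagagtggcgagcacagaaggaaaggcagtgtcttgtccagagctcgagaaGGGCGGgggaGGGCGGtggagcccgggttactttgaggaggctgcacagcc
Gas6 (chr8:13494536-13494785, minus strand): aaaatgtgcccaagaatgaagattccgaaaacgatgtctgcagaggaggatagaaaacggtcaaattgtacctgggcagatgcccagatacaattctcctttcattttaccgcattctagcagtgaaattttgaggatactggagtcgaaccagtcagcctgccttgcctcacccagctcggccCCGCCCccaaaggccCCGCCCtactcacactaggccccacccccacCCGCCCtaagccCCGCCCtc
Axl (chr7:25788734-25788983, minus strand): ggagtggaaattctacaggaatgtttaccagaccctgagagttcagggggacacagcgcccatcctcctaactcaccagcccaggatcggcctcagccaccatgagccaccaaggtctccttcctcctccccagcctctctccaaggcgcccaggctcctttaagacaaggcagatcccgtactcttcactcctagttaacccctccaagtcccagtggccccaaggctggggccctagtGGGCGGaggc
Mertk (chr2:128698665-128698914, plus strand): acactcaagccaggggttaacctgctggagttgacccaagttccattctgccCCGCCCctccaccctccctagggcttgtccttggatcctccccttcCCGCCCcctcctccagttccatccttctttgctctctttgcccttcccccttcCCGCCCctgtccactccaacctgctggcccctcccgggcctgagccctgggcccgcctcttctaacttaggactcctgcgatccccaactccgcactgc
The hexamer occurred 2 times in the Csf1 window, 4 times in Gas6, 1 time in Axl and 3 times in Mertk. Searched on both strands, it was in 5 of the 7 member windows that RefSeq gave, and in 32.7% of all 32851 windows of this length. Among the windows without it were those of Cx3cr1 and Ccr2, which lie largely or wholly in annotated exons. A match is a description of the letters and says nothing about a bound factor.

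The ligands also varied among interstitial barcodes of different marker genes. These sets were defined by minimum UMIs of named genes and overlap, and cells of 1 library share their source, so the ratios are descriptions. Barcodes with at least 2 Notch3 UMIs (221 in Fbn1 C1039G/+ and 283 in WT) had 44.5 CPM of Cx3cl1 in Fbn1 C1039G/+ and 54.9 CPM in WT, 2.68-fold and 2.88-fold the level in other interstitial barcodes. Gas6 was 858 CPM in Fbn1 C1039G/+ and 888 CPM in WT in the Notch3 barcodes, 1.72-fold and 1.77-fold the rest. Csf1 was level there, at 0.990-fold and 0.999-fold.

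Barcodes rich in the cartilage and tendon matrix genes Chad, Cilp2 and Comp (at least 10 UMIs, 2366 in Fbn1 C1039G/+ and 2295 in WT) showed the reverse. Their Gas6 was 277 CPM in Fbn1 C1039G/+ and 262 CPM in WT, 0.437-fold and 0.405-fold the rest. Their Mertk was 17.7 CPM in Fbn1 C1039G/+ and 21.5 CPM in WT, 2.17-fold and 2.42-fold the rest. Barcodes with at least 20 UMIs of Prg4, which codes for the lubricant lubricin, had Gas6 at 0.367-fold and 0.259-fold, Cx3cl1 at 0.418-fold and 0.358-fold, and Mertk at 1.85-fold and 2.06-fold. Barcodes with at least 3 UMIs of Thbs4 and Cspg4 gave Gas6 at 0.403-fold in Fbn1 C1039G/+ and 0.305-fold in WT, with Mertk at 1.98-fold and 2.27-fold. The bridging ligand and its receptor Mertk thus ran in opposite directions across these 3 overlapping sets, in both libraries. Axl stayed between 0.955-fold and 1.08-fold in all 3 sets. Not every set showed this opposite order. With at least 3 UMIs of Top2a and Mki67, Gas6 was 0.585-fold and 0.407-fold, and Mertk 0.365-fold and 0.315-fold. With at least 5 UMIs of C3, Pi16 and Dpp4, Gas6 was 1.39-fold and 1.70-fold, and Mertk 1.16-fold and 1.22-fold. Mertk was 0.650-fold and 0.811-fold in the Notch3 barcodes, where Gas6 was higher.

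Csf1 varied less than the other ligands. It was highest in barcodes with at least 10 UMIs of the interferon-response genes Ifit1, Ifit3 and Isg15, at 95.2 CPM in Fbn1 C1039G/+ and 114 CPM in WT, 1.36-fold and 1.58-fold the rest. It was 0.683-fold and 0.719-fold in the Thbs4 and Cspg4 barcodes. Gas6 was 1.39-fold in Fbn1 C1039G/+ and 1.70-fold in WT in barcodes with at least 5 UMIs of C3, Pi16 and Dpp4, genes of adventitial fibroblasts. In the interferon-response set Axl was 1.32-fold the rest in Fbn1 C1039G/+ and 1.01-fold in WT, a difference that was not tested. That set held 11.4% of interstitial barcodes in Fbn1 C1039G/+ and 6.29% in WT.

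**Figure D3:**
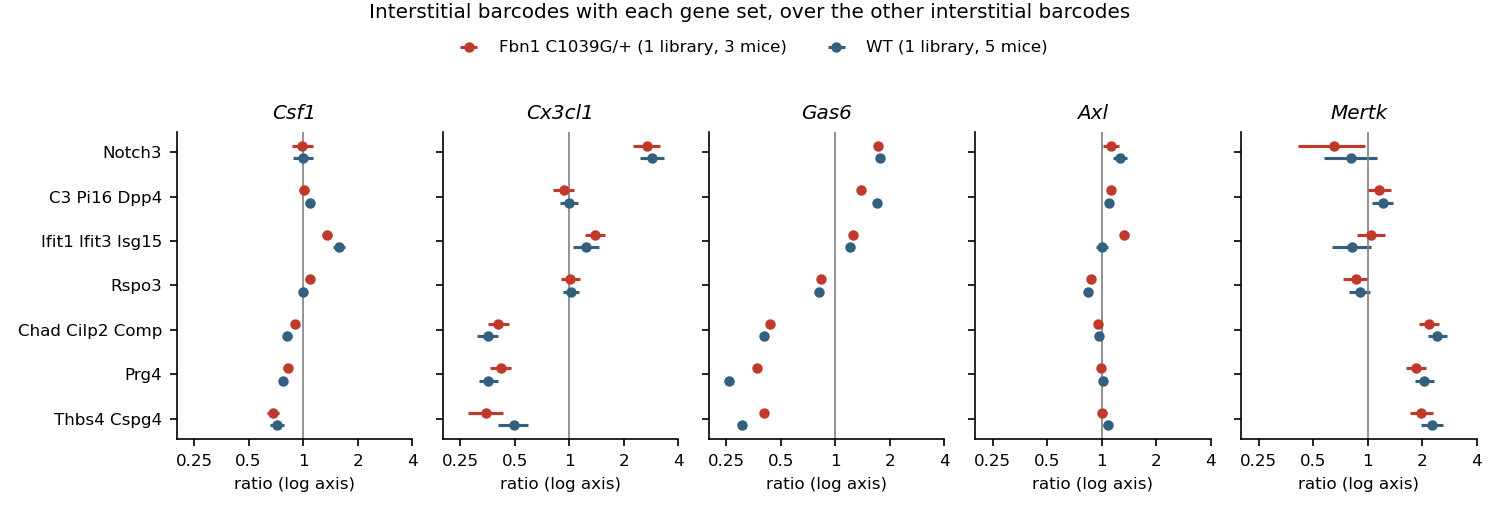
Ratio of the CPM of 5 genes (log axis) in interstitial barcodes with a minimum of UMIs of the named genes to that in the other interstitial barcodes, in the Fbn1 C1039G/+ library (red, upper point) and the WT library (blue, lower point), with exact 95% counting intervals. In the lowest 3 rows Gas6 lies between 0.259 and 0.437 and Mertk between 1.85 and 2.42.

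Among macrophage barcodes, members differed by the share of UMIs from the antigen-presentation genes of MHC class II (H2-Aa, H2-Ab1, H2-Eb1 and Cd74). At least 1% of UMIs came from these genes in 483 Fbn1 C1039G/+ barcodes (54.9%, 51.5 to 58.2) and 510 WT barcodes (63.8%, 60.3 to 67.1). Barcodes within 0.5% to 2%, near this limit, numbered 123 in Fbn1 C1039G/+ and 127 in WT, of 880 and 800 in the class. Ccr2 was 188 CPM in Fbn1 C1039G/+ and 108 CPM in WT in the set with more MHC class II, and 22.0 and 4.94 CPM in the rest. Gas6 ran the other way, with 97.9 CPM in Fbn1 C1039G/+ and 147 CPM in WT in the set with more MHC class II, and 445 and 496 CPM in the rest. Mertk followed Gas6, with 19.2 and 29.3 CPM against 56.9 and 66.5 CPM, and Axl did not, with 164 and 146 CPM against 102 and 94.5 CPM. Csf1r and Cx3cr1 changed less, with 689 and 773 CPM against 875 and 1015 CPM for Csf1r, and 940 and 848 CPM against 855 and 833 CPM for Cx3cr1, in Fbn1 C1039G/+ and WT in each case.

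Macrophage barcodes with at least 1 UMI of Lyve1, Folr2 or Timd4, genes of long-lived resident macrophages, numbered 282 in Fbn1 C1039G/+ and 287 in WT. They had 547 CPM of Gas6 in Fbn1 C1039G/+ and 519 CPM in WT, and macrophage barcodes with none of these UMIs had 108 and 118 CPM. Their Ccr2 was 31.1 CPM in Fbn1 C1039G/+ and 30.2 CPM in WT, against 148 and 94.1 CPM without these genes. In thinned macrophage barcodes Mertk was found in 16.7% of those with a Gas6 UMI in Fbn1 C1039G/+ and 15.3% in WT, against 6.25% and 9.91% of those without. Axl was found in 25.9% and 25.4% of thinned barcodes with a Gas6 UMI, against 34.8% and 34.3% without. Unthinned, the Mertk shares were 33.3% and 37.0% with Gas6 and 10.6% and 17.4% without, and the Axl shares 51.7% and 57.4% with Gas6 and 59.8% and 64.2% without. Gas6 transcript therefore went with Mertk and not with Axl in macrophage barcodes.

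Ccr2 barcodes in the macrophage class did not lack Cx3cr1. A Cx3cr1 UMI was present in 90.3% of macrophage barcodes with Ccr2 in Fbn1 C1039G/+ and 93.9% in WT, and in 88.9% and 93.0% of those without Ccr2, at medians of 8229 and 9975 UMIs against 7292 and 8083 UMIs. Thinned, these shares were 82.5% and 78.3% with Ccr2 and 79.4% and 83.1% without. Of the 5 receptors, 3 were found together in 43.1% of Fbn1 C1039G/+ and 43.5% of WT macrophage barcodes, the most frequent number in both.

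**Figure D4:**
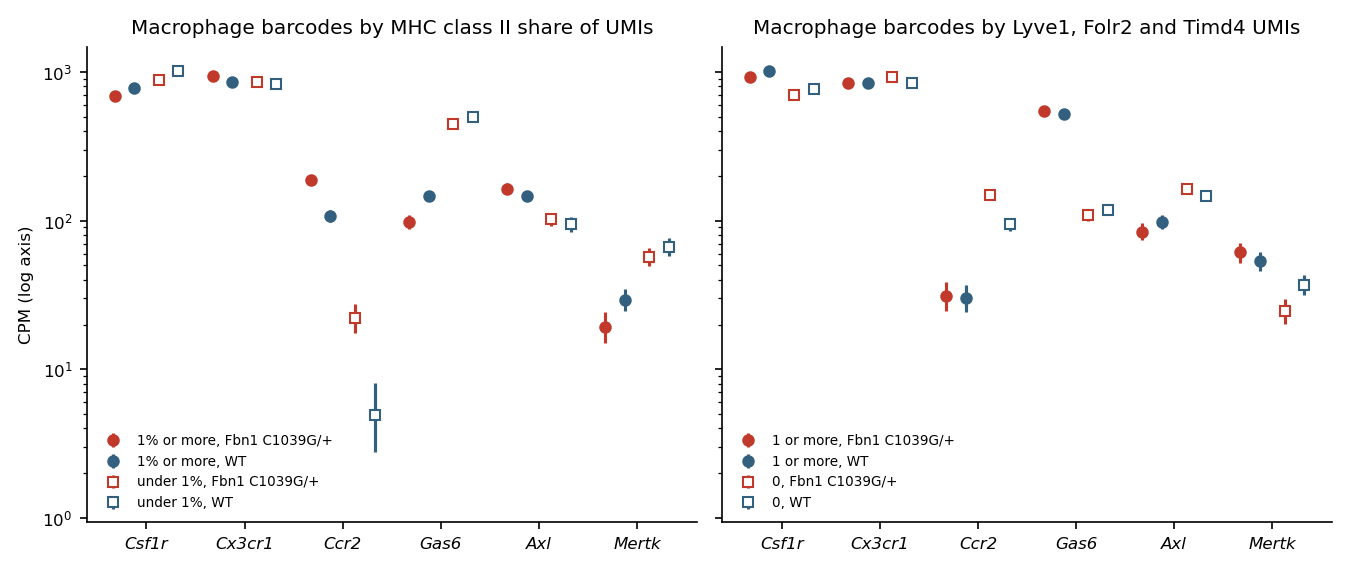
Level of 6 genes in CPM (log axis) in macrophage barcodes divided by the MHC class II share of their UMIs (left) and by UMIs of Lyve1, Folr2 and Timd4 (right), with exact 95% counting intervals. Filled circles are barcodes with at least 1% or at least 1 UMI, open squares the others, red the Fbn1 C1039G/+ library and blue the WT library. Ccr2 and Gas6 lie in opposite order in both panels.

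Between genotypes a member was measured in a class when it reached 20 CPM in either library and 50 UMIs over both. It was called different at a ratio of at least 1.5 in either direction with an interval that excludes 1. In macrophage barcodes 1 of 6 measured members was called, against 5.05% of the 6080 genes measured. This was Ccr2, with 756 UMIs in Fbn1 C1039G/+ and 537 in WT and a ratio of 1.53 (1.37 to 1.71). The rule called 1.43% of genes higher in Fbn1 C1039G/+ and 3.62% lower. Csf1r had a ratio of 0.904 (0.872 to 0.936), Cx3cr1 1.06 (1.03 to 1.10), Gas6 0.973 (0.915 to 1.03), Axl 1.05 (0.960 to 1.15) and Mertk 0.878 (0.747 to 1.03). These 5 ratios lay within 1.5-fold.

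The Ccr2 difference depended on which barcodes entered. In all kept barcodes Ccr2 was lower in Fbn1 C1039G/+, at 13.0 CPM against 15.9 CPM in WT, a ratio of 0.814 (0.756 to 0.876). The macrophage class held 56.3% of Ccr2 UMIs in Fbn1 C1039G/+ and 33.4% in WT, and Ptprc barcodes held 22.4% and 38.8%. Interstitial barcodes held 13.6% in Fbn1 C1039G/+ and 24.2% in WT. When interstitial barcodes with at least 10 C1q UMIs were joined to the macrophage class, the ratio was 1.22 (1.11 to 1.35). The 8 monocyte and dendritic cell genes summed to 17.5 CPM in Fbn1 C1039G/+ and 31.4 CPM in WT macrophage barcodes, with 2 genes at 0 in each library. Ly6c2 and Plac8, genes of classical monocytes, were at 13.6 and 0.714 CPM in Fbn1 C1039G/+ macrophage barcodes with Ccr2, against 83.0 and 46.2 CPM in the WT ones. These values rest on few barcodes. In the whole macrophage class, Ly6c2 was found in 0.568% of Fbn1 C1039G/+ and 1.88% of WT barcodes. Plac8 was found in 0.114% and 1.5%. Cd209a and Xcr1, of the same 8 genes, went the other way in the class. Their levels were 7.58 and 3.17 CPM in Fbn1 C1039G/+ and 3.55 and 2.15 CPM in WT. Without barcodes that held a Ly6c2 or Plac8 UMI, 875 Fbn1 C1039G/+ and 781 WT macrophage barcodes gave a Ccr2 ratio of 2.04 (1.79 to 2.32). These 3 sets were chosen after the data had been seen.

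Both libraries held cells of both sexes, read from Xist and Y-linked UMIs, and 1 sex of a pool may come from a single mouse. Female macrophage barcodes (442 in Fbn1 C1039G/+ and 341 in WT) gave a Ccr2 ratio of 1.37 (1.15 to 1.64). Male ones (245 and 292) gave 1.30 (1.07 to 1.59), and barcodes with UMIs of neither kind (173 and 136), which were shallower, gave 3.02 (2.27 to 4.07). Within each sex Ccr2 was thus higher in Fbn1 C1039G/+ but below 1.5-fold. For Cx3cr1 the sexes went opposite ways. Female macrophage barcodes had 739 CPM in Fbn1 C1039G/+ and 976 CPM in WT, and male ones had 1084 CPM in Fbn1 C1039G/+ and 772 CPM in WT. Sex and single mice cannot be told apart.

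Within the macrophage sets, Ccr2 was higher in Fbn1 C1039G/+ in the barcodes with more MHC class II (ratio 1.75, 1.56 to 1.96) and in those with less (4.47, 2.55 to 8.34, from 81 and 15 UMIs). In Lyve1, Folr2 or Timd4 barcodes it was level, at 1.03 (0.761 to 1.39). Gas6 and Mertk were lower in Fbn1 C1039G/+ in the barcodes with more MHC class II, with ratios of 0.666 (0.584 to 0.758) and 0.657 (0.486 to 0.883). In the barcodes with less MHC class II the Gas6 ratio was 0.898 (0.836 to 0.963) and the Mertk ratio 0.856 (0.702 to 1.04). Over the whole class, whose split by MHC class II differed between the libraries, Gas6 was at 0.973. With Lyve1, Folr2 or Timd4 the ratios were 1.05 (0.982 to 1.13) for Gas6 and 1.15 (0.922 to 1.43) for Mertk. Without these genes they were 0.919 (0.812 to 1.04) and 0.663 (0.517 to 0.846). The share of all genes past 1.5-fold was not counted within these sets.

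In interstitial barcodes 0 of 4 measured members were called, against 2.36% of 6563 genes (0.945% higher and 1.42% lower in Fbn1 C1039G/+). The ratios were 0.978 (0.945 to 1.01) for Csf1, 0.855 (0.797 to 0.917) for Cx3cl1, 0.989 (0.976 to 1.00) for Gas6 and 1.01 (0.986 to 1.04) for Axl. The levels of the ligands Csf1, Cx3cl1 and Gas6 in this main source class were within 1.5-fold between the libraries by their whole intervals. Il34, below the level filter with 242 UMIs in Fbn1 C1039G/+ and 167 in WT, had a ratio of 1.39 (1.13 to 1.70). In endothelial barcodes 0 of 4 were called, against 6.45% of 7240 genes (3.22% higher and 3.23% lower). Csf1 had 307 UMIs in each library and a ratio of 0.777 (0.661 to 0.913). Mertk was below the level filter there, with 75 UMIs in Fbn1 C1039G/+ and 29 in WT, or 15.4 and 7.66 CPM, a ratio of 2.01 (1.29 to 3.2). With 1 library per genotype these counting intervals do not show how far 2 WT pools would differ.

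**Figure D5:**
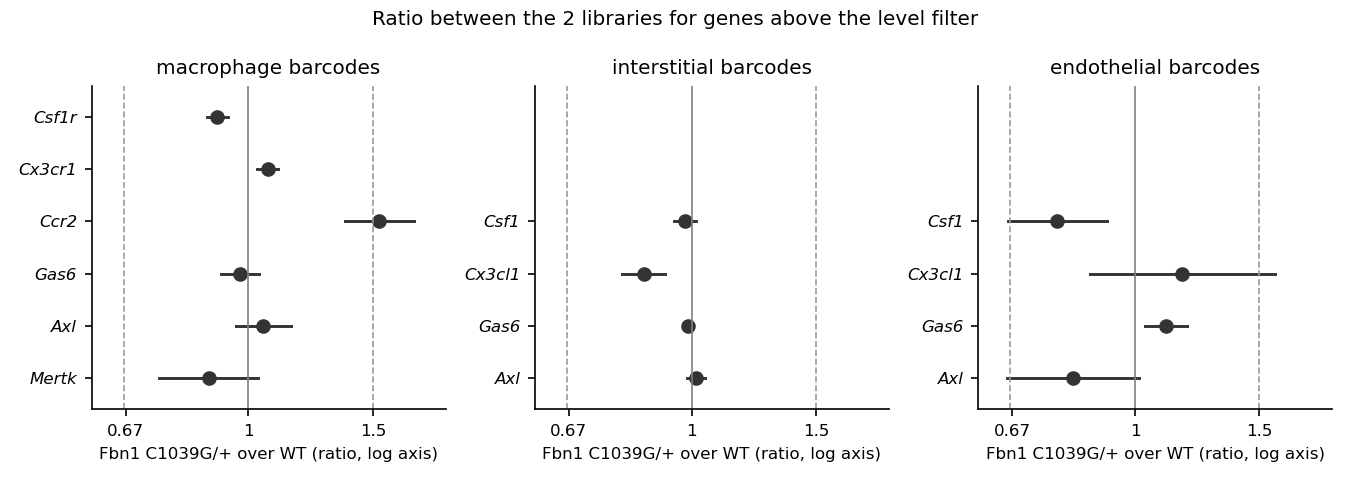
Ratio of CPM in the Fbn1 C1039G/+ library to that in the WT library (log axis) for members above the level filter in macrophage, interstitial and endothelial barcodes. Bars are exact 95% intervals of counting error, and dashed lines mark 1.5-fold in either direction. Only Ccr2 in macrophage barcodes lies past a dashed line, at 1.53.

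The genes that act around the members were taken as 4 lists. Among CSF1R signalling and lineage genes, all 10 of 10 were at least 2-fold higher in macrophage than in interstitial barcodes in both libraries, among them Spi1, the transcription factor that drives Csf1r, and Tyrobp, a signalling adaptor. The same rule called 15.9% of all 7751 genes higher in macrophage barcodes. By genotype 0 of 10 were called in macrophage barcodes, with a median log2 ratio of 0.02, equal to the 0.02 of all genes measured. Of the chemokine partners and sheddases, 7 of 10 were higher in macrophage barcodes, against the same 15.9%, including the monocyte attractants Ccl2, Ccl7, Ccl8 and Ccl12. Adam10, which sheds Cx3cl1 from the membrane, was higher in endothelial than in interstitial barcodes, at 161 CPM against 52.6 CPM in Fbn1 C1039G/+ and 174 CPM against 47.4 CPM in WT.

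In macrophage barcodes Ccl7 and Ccl8 were called lower in Fbn1 C1039G/+, as was the receptor Cxcr4. Of 9 measured chemokine partners and sheddases, 0 were called higher and 3 lower in Fbn1 C1039G/+, where the rule called 1.43% of all macrophage genes higher and 3.62% lower. Ccl7 was at 268 CPM in Fbn1 C1039G/+ and 426 CPM in WT (ratio 0.629, 0.595 to 0.666). Ccl8 was at 372 CPM and 603 CPM (0.617, 0.588 to 0.647). Cxcr4, the Cxcl12 receptor, was at 50.7 CPM and 78.2 CPM (0.648, 0.568 to 0.739). Ccl2 was at 372 CPM in Fbn1 C1039G/+ and 545 CPM in WT, a ratio of 0.682 (0.650 to 0.716) that fell short of the rule. Ccl12 was at 676 CPM in Fbn1 C1039G/+ and 735 CPM in WT (0.921, 0.886 to 0.957) and was not called either.

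In endothelial barcodes Ccl2 and Ccl7 were called higher in Fbn1 C1039G/+, while Ccl8 and Ccl12 had at most 5 UMIs in either library. Ccl2 was at 324 CPM in Fbn1 C1039G/+ and 77.7 CPM in WT (ratio 4.17, 3.68 to 4.74), and Ccl7 at 128 and 47.0 CPM (2.72, 2.30 to 3.23). They were 2 of the 4 measured members of the list, against 3.22% of endothelial genes called higher. Kitl, the ligand of Kit, was lower there, at 84.8 CPM in Fbn1 C1039G/+ and 140 CPM in WT (0.608, 0.533 to 0.692). Irf8 and Tyrobp, genes of myeloid cells, were lower too, at 10.7 and 6.57 CPM in Fbn1 C1039G/+ and 39.1 and 21.4 CPM in WT. The 12 macrophage markers summed to 25.5 CPM in Fbn1 C1039G/+ and 90.9 CPM in WT endothelial barcodes, 1 of them at 0 in each. The WT sum came mostly from Lyve1, Fcer1g, Lyz2, Ptprc and Mrc1, while Adgre1, Cd68, Ms4a7 and Folr2 were not higher in WT. In the same barcodes the 4 T and NK cell genes summed to 1.23 CPM in Fbn1 C1039G/+ and 19.6 CPM in WT. What part immune cell RNA had in the endothelial values was not tested.

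Of the genes of the Gas6, Axl and Mertk pathway, 5 of 14 measured were higher in macrophage barcodes (Lgals3, Stab1, Cd36, Timd4 and Socs3) and 4 higher in interstitial barcodes. Over all genes these shares were 15.9% and 22.6%, so the interstitial count is near the background. The 4 interstitial ones were Mfge8, another bridging protein for dying cells, the integrin subunit Itgav, the negative regulator Socs1 and Ggcx, the enzyme whose carboxylation Gas6 needs to bind phosphatidylserine. Mfge8 was at 330 CPM in Fbn1 C1039G/+ and 264 CPM in WT interstitial barcodes, against 31.8 and 28.3 CPM in macrophage barcodes. Ggcx was at 36.0 and 32.5 CPM in interstitial barcodes against 4.13 and 5.20 CPM in macrophage barcodes. Pros1, a second ligand of Mertk, was at 76.7 CPM in Fbn1 C1039G/+ and 72.4 CPM in WT interstitial barcodes and at 144 and 153 CPM in endothelial barcodes. Tyro3, the third receptor of the family, was at 11.8 and 12.7 CPM in interstitial barcodes but at 0.551 and 1.39 CPM in macrophage barcodes.

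By genotype, Socs3, a feedback inhibitor of cytokine signalling, was the gene of this list called in macrophage barcodes (1 of 12 measured) and in interstitial barcodes (1 of 11). It was at 99.3 CPM in Fbn1 C1039G/+ and 221 CPM in WT macrophage barcodes (0.449, 0.411 to 0.490). In interstitial barcodes it was at 22.8 CPM in Fbn1 C1039G/+ and 60.9 CPM in WT (0.374, 0.355 to 0.395). Of the CSF family and receptors, 2 of 11 were measured in macrophage barcodes, and Csf2rb, the shared signalling chain of related cytokine receptors, was called lower, at 32.5 CPM in Fbn1 C1039G/+ and 49.6 CPM in WT (0.656, 0.556 to 0.773). The stromal ligand Kitl was at 95.1 CPM in Fbn1 C1039G/+ and 88.3 CPM in WT interstitial barcodes, and was at least 2-fold higher there than in macrophage barcodes.

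The genes most like each member in level over the 7 classes of both libraries are named as a description, from 14 points that share 2 libraries and differ in depth. For Csf1r they were Clec4a2, Fcgr1 and Clec5a (Pearson r of 0.971, 0.970 and 0.968 on log2 of CPM plus 1). For Cx3cr1 they were Adgre1, Ms4a7 and C5ar1 (0.974, 0.971 and 0.969), and for Ccr2 Rasgrp1, Ifi209 and Rac2 (0.993, 0.989 and 0.988). For Csf1 they were Tcf7l1, Snap47 and Zfp521 (0.964, 0.963 and 0.963), for Cx3cl1 Spon1, Hic1 and Gask1b (0.978, 0.973 and 0.971), and for Il34 Actg2, Has2 and Smim41 (0.942, 0.942 and 0.941). Gas6 was closest to Kansl1l, Rhob and Tanc2 (0.944, 0.937 and 0.936), Axl to Pla2g4a and Cmklr1 (0.934 and 0.926) and Mertk to Lgmn, Gna12 and Zfp395 (0.914, 0.893 and 0.886).

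On the mm10 assembly with GENCODE release M21, the ligand genes lie at chr3:107741048-107760469 (Csf1), chr8:110741829-110805924 (Il34), chr8:94772009-94782427 (Cx3cl1) and chr8:13465374-13494490 (Gas6). The receptor genes lie at chr18:61100598-61132149 (Csf1r), chr9:119901616-120069879 (Cx3cr1), chr9:124101950-124113557 (Ccr2), chr7:25757273-25788705 (Axl) and chr2:128698956-128802894 (Mertk).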

How the data were processed

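The authors deposited raw UMI counts per gene and barcode as 10x matrices. Alignment was to mm10 with Cell Ranger 3.1.0 per the submitters' processing notes, whereas the file headers name Cell Ranger 5.0.1. The counts were used as deposited, and all later steps used Python 3.11.15, numpy 2.4.6, scipy 1.17.1, pandas 2.3.3 and matplotlib 3.10.9.

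The members and lists were chosen with earlier results of these data known. Barcodes under 1000 UMIs, or with more than 20% of UMIs from mitochondrial genes, were removed, and the classes were called as given with the results. Remaining barcodes needed 2 Ptprc UMIs, 5 UMIs of Dct, Pmel and Mlana, or 3 UMIs of Rgs5, Kcnj8 and Abcc9, in this order. No doublet caller was run; an upper limit on UMIs per barcode and classes free of other classes' markers were tried instead. UMIs were summed by class and library and divided by the class total to give CPM. For shares of barcodes with a UMI, each barcode was also thinned to 3000 UMIs, which left out 58 Fbn1 C1039G/+ and 29 WT macrophage barcodes. With 1 library per genotype there was no replicate and no test. Intervals (95%) were Poisson for CPM, Clopper-Pearson for shares and exact conditional binomial for ratios, and a count of 0 was limited at 3 counts; UMIs remove most amplification copies, but these intervals cover counting error only. The calling step was checked on simulated data. Named were all 9 members, the genes of 4 pathway lists past the fold, and the 3 genes of highest Pearson r with each member, of which 1 is not reported here. There were 7 marker lists. Results were recomputed under 15 alternatives. Gene positions are from GENCODE release M21 and promoter windows from RefSeq on GRCm38.p6.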

Additional observations from a re-analysis of the deposited data

Results flagged for a closer look

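Gas6 also appeared in the barcodes that the depth and mitochondrial limits removed, 204 in Fbn1 C1039G/+ and 114 in WT. These held 58 Gas6 UMIs in Fbn1 C1039G/+ and 17 in WT, and the level in Fbn1 C1039G/+ was 2.23 times that in WT. These barcodes enter no comparison. In macrophage barcodes, the genotype ratio of Cx3cr1 was 0.757 in female and 1.4 in male barcodes, and that of Axl was 0.823 in female (0.715 to 0.949) and 1.26 in male barcodes (1.08 to 1.46). Each pair of sexes pointed in opposite directions, and the difference between the sexes was not tested.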

How the results depend on the processing

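Members higher in interstitial than in macrophage barcodes numbered 2, but 1 (Csf1) when interstitial barcodes needed 2% of UMIs or genes needed at least 50 CPM, since Cx3cl1 was then under the level filter. With no filter on low values, members different by genotype numbered 2 in macrophage barcodes, with Cx3cl1 lower in Fbn1 C1039G/+ beside Ccr2. They then numbered 1 in interstitial barcodes (Ccr2, lower) and 1 in endothelial barcodes (Mertk, higher). In female barcodes alone and in male barcodes alone the macrophage count was 0. Of 210 single ratios over 14 results and 15 alternatives, 189 stayed within the main interval and 21 moved. Of the 210, 9 lay on the other side of 1 from the main ratio, none of them Ccr2. Of these 9, 5 were inside the main interval, and 4 were outside it, all in macrophage barcodes: 0.757 for Cx3cr1 and 0.823 for Axl in female barcodes, and 1.04 for Csf1r and 1.12 for Mertk in male barcodes. Ccr2 in macrophage barcodes ranged from 1.30 in male barcodes to 1.78 in thinned ones. Over all kept barcodes, an alternative chosen after the data had been seen, it reversed to 0.814. In the same barcodes Cx3cr1 was at 0.891 (0.864 to 0.919), against 1.06 in macrophage barcodes. Csf1r was at 0.785 (0.760 to 0.810), against 0.904, and Gas6 at 1.01 (0.998 to 1.02), against 0.973. The cause of these shifts was not tested. No paired analysis was possible because there is 1 library per genotype, each from different mice. Il34 and endothelial Mertk are limited by depth.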
